A study of Mus musculus with 2 samples.

Results

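CD3-negative innate lymphoid cells (ILCs) of the aged mouse gut were divided by their transcripts of Csf2, the gene for the cytokine GM-CSF. Cells with at least 2 Csf2 molecules, counted as unique molecular identifiers (UMIs), were called Csf2-positive, and cells with 0 were called Csf2-zero. The positive side held 529 of the 4063 CD3-negative ILCs, 157 of 1817 in replicate 1 and 372 of 2246 in replicate 2, out of 7381 cells carrying a replicate's own sample tag. The zero side held 1466 and 1534 cells. A CD3-negative ILC was a cell with at least 300 genes, at most 25% mitochondrial UMIs, at least 1 UMI of Il7r, the IL-7 receptor chain of ILCs, and 0 UMIs of Cd3d, Cd3e, Cd3g and Trac. The cells came from 1 group, ILC3s from the lamina propria of the small intestine of male C57BL/6 mice aged 18 months, isolated by sorting and measured by BD Rhapsody single-cell RNA sequencing in 2 replicates. The labels used here state no genotype or treatment and do not say whether the replicates were separate animals. The p-values rest only on how the difference between the sides varied between these 2 samples, pooled over genes. That spread may be technical. Differences in level between the samples themselves are taken out by treating the sample as a block.

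Group 3 ILCs are tissue-resident lymphocytes that lack rearranged antigen receptors and are known for their part in the gut barrier. In the gut they answer IL-23 and IL-1β from myeloid cells with bursts of IL-22, IL-17 and GM-CSF, and GM-CSF in turn acts on intestinal macrophages and dendritic cells. Cytokine genes of this kind are switched on through NF-κB, NFAT and AP-1, and their short-lived mRNAs are cleared by AU-rich element binding proteins such as tristetraprolin, encoded by Zfp36.

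The libraries and the cells bear on every comparison. The 2 libraries shared 303 cell indices, 1.92% and 1.83% of their cells, of which 10 were between cells of the own tags. Csf2-positive cells were the deeper ones, with a median of 2201 and 1908 UMIs per cell against 1785 and 1589 in Csf2-zero cells, and mitochondrial shares of 8.85% and 8.39% against 8.69% and 7.85%. The summed counts held 372777 and 738376 UMIs on the positive side and 2785725 and 2550170 on the zero side. Levels are given as CPM (counts scaled to the total UMIs) of these sums, per replicate. All 19 genes of an ILC3 identity list were detected on both sides in both replicates. Id2, the ILC lineage regulator, had a UMI in 58.6% and 71.0% of positive cells and in 43.9% and 60.6% of zero cells. The T cell coreceptor gene Cd8a had no UMI in positive cells and 9 and 3 UMIs in zero cells, while Trbc1 and Trbc2, constant segments of the T cell receptor β chain, had a UMI in 43.1% to 62.4% of cells on either side.

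Csf2 itself was unevenly spread over the cells. It is a secreted growth factor of granulocytes and macrophages, and its gene lies on mouse chromosome 11 from 54247271 to 54249667 on the minus strand (GRCm38, GENCODE M21). Replicate 1 held 695 Csf2 UMIs in its CD3-negative ILCs, or 196 CPM, and replicate 2 held 1865, or 476 CPM. The share of Csf2-positive cells was 8.64% (95% exact Clopper-Pearson interval 7.39 to 10.03) in replicate 1 and 16.6% (15.05 to 18.2) in replicate 2, a mean of 12.6% ± 5.60 (SD, n = 2). These intervals cover counting error only, and the replicates differed by more than it. Positive cells carried 72.1% and 81.8% of all Csf2 UMIs. The variance of Csf2 UMIs per cell was 3.19 and 3.95 times their mean, and 80.7% and 68.3% of cells had none where a Poisson spread of the same mean gives 68.2% and 43.6%. The highest single cells held 17 and 16 UMIs. As the plot of Csf2 UMIs per cell shows, the counts fell away without a gap at the threshold: 194 and 340 cells lay just outside it with 1 UMI, 78 and 129 lay just inside with 2, and 79 and 243 had 3 or more. These values chose the cells and are a description with no test.

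**Figure D1:**
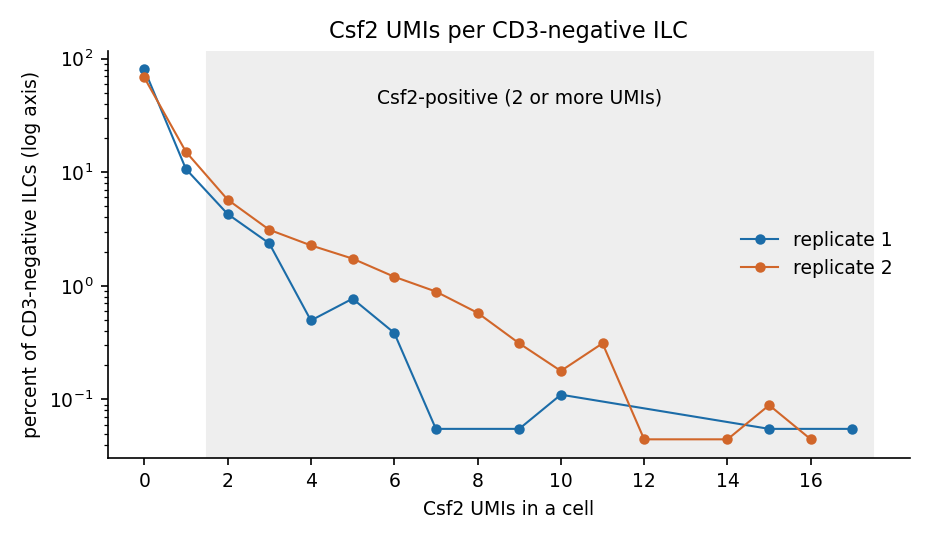
Share of CD3-negative ILCs (log axis, percent) by the number of Csf2 UMIs in the cell, with 1 line per replicate and the Csf2-positive range shaded. Most cells had 0 UMIs (80.7% in replicate 1 and 68.3% in replicate 2), and replicate 2 lies above replicate 1 at each count from 1 to 10 that both hold.

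Depth and free RNA limit what a share of cells can say. With every cell thinned to 1000 UMIs, which left out 113 and 174 shallower ILCs, 3.64% and 10.6% of cells still had at least 2 Csf2 UMIs. Cells that should lack Csf2 were few. Without thinning, at least 2 UMIs occurred in 1 of 42 stromal cells of replicate 1 (2.38%, exact interval 0.0603 to 12.6, median 3342.5 UMIs). In replicate 2 they occurred in 0 of 4 (exact interval 0 to 60.2). Among B or plasma cells they occurred in 1 of 15 and 0 of 5. A single Csf2 UMI or more was found in 6 of those 42 stromal cells (14.3%) against 19.3% of ILCs in replicate 1, whose median depth was 1826 UMIs. Thinned to 1000 UMIs, these shares were 2 of 37 stromal cells (5.41%, exact interval 0.661 to 18.2) and 12.8% of ILCs (11.2 to 14.5). T cells, which can make GM-CSF, had at least 2 UMIs in 1.65% and 3.0% of cells after thinning, against the 3.64% and 10.6% of ILCs. Without thinning the shares were 3.89% and 5.21% of T cells against 8.64% and 16.6% of ILCs.

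Csf2-positive cells were found among ILCs with and without the markers of each ILC subset. With cells thinned to 1000 UMIs, they made up 3.59% and 11.3% of the ILCs with Ncr1, the NKp46 receptor of NCR+ ILC3s, and 3.66% and 10.5% of those without. Among cells with Il22 the shares were 3.81% and 12.4%, beside 3.64% and 10.6% of all CD3-negative ILCs. Cells without Il22 were not counted apart. Cells with Ccr6 or Cd4, markers of lymphoid tissue inducer (LTi) cells, gave 4.17% (5 of 120, interval 1.37 to 9.46) and 5.36% (3 of 56, interval 1.12 to 14.9). Within a replicate the intervals of the subsets given here overlapped. They cover counting error only and do not compare cells with Il22 to cells without it.

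Expression of other genes was compared between the 2 sides with edgeR's quasi-likelihood test on the summed counts, with the replicate as a block and Benjamini-Hochberg adjustment over all 8499 genes tested. The genes of the selection rule were left out. A gene is called when its adjusted p was below 0.05. Csf2-positive cells had 42 genes higher (0.494% of those tested) and 45 lower (0.529%), and the median log2 ratio over all genes was 0.01. Of all genes tested, 51.9% had a ratio above 0. Counts over the gene lists below stand beside these shares, at which a short list often has no called gene. The higher genes were led by secreted signals: Tnf, Lif, Cxcl2, Areg and Cxcl3, with the prostaglandin synthase Ptgs2, at 1.85 to 2.28 times the level of Csf2-zero cells. Smaller differences were called in Il22, Cd69, NF-κB feedback genes and the mRNA decay genes Zfp36 and Zfp36l1. The lower genes were led by MHC class II genes, Ccl3, Ccl4 and Ccl5, an IL-12 receptor gene and transcripts of plasma and stromal cells. The stromal transcripts were lower over both replicates together but not in replicate 2. An IL-21 receptor gene was also called lower, on too few UMIs for its ratio to be informative. All 42 higher genes had the same direction in both replicates, against 33 of the 45 lower genes. The calls were made from these same replicates, so this agreement is a description and not a separate replication.

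The fit rests on 1 residual degree of freedom and a spread pooled over genes, with no part particular to any gene. Its common dispersion was 0.00374, and 566 genes had an unadjusted p below 0.05. DESeq2 called 13 higher (0.153%) and 3 lower (0.0353%), edgeR without the replicate block called 0 in either direction (0.0%, with 109 genes below 0.05 unadjusted), and counting cells with a UMI instead of UMIs also called 0 (0.0%, with 336 unadjusted).

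**Figure D2:**
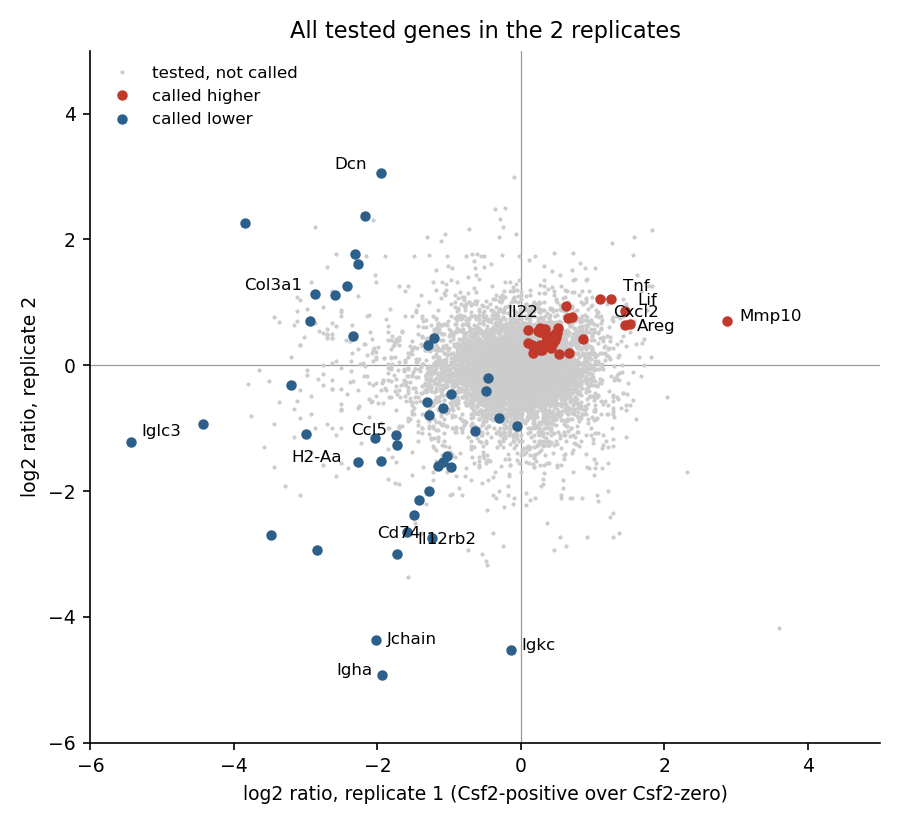
Log2 ratio of Csf2-positive over Csf2-zero cells in replicate 1 (horizontal) and replicate 2 (vertical) for the 8499 genes tested, 1 point per gene, from log2 CPM with a prior count of 2. The 42 genes called higher (red) lie in the upper right, while 12 of the 45 genes called lower (blue), among them Col3a1 and Dcn, lie above 0 in replicate 2.

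Among the secreted cytokines and growth factors, 4 of 17 tested genes were higher and 1 was lower, with a list median log2 ratio of 0.37 and 14 genes above 0. Tnf, an inflammatory cytokine that activates NF-κB in its target cells, stood at 209 and 180.1 CPM in Csf2-positive cells of replicates 1 and 2 and at 85.8 and 87.4 CPM in Csf2-zero cells. Both positive sums lay above both zero sums, and the log2 ratio was 1.19 (SE 0.16, edgeR adjusted p = 1.4e-11). Lif, a cytokine of the IL-6 family, stood at 67.1 and 96.2 CPM against 23.3 and 52.9 CPM, a log2 ratio of 1.12 (SE 0.23, edgeR adjusted p = 0.00035). Areg, an epidermal growth factor receptor ligand known from tissue repair, stood at 80.5 and 109.7 CPM against 28.4 and 70.6 CPM. Its log2 ratio was 0.95 (SE 0.21, edgeR adjusted p = 0.0012), though in replicate 1 a single cell held 56.7% of the positive side's 30 UMIs. Vegfa, which promotes vessel growth, was lower, at 40.2 and 46.0 CPM against 98.4 and 81.6 CPM (log2 ratio -0.96).

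Il22, the ILC3 cytokine that maintains the epithelial barrier, was abundant on both sides and higher in Csf2-positive cells. It stood at 2994 and 3355 CPM against 2348 and 2285 CPM, so the groups did not overlap, and its log2 ratio was 0.49 (SE 0.06, edgeR adjusted p = 4.96e-13). With cells thinned to 1000 UMIs, 58.0% and 59.6% of positive cells had an Il22 UMI against 47.4% and 45.1% of zero cells. The same thinning gave Tnf in 14.0% and 14.3% of positive cells against 6.53% and 7.13%, as the plot of shares of cells shows. Most Csf2-positive cells had an Il22 UMI, and most had none of Tnf at this depth.

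The IL-17 genes, the other signature of ILC3s, were not called. Il17a rested on few counts, 3 and 17 UMIs on the positive side and 36 and 25 on the zero side, or 8.05 and 23.0 CPM against 12.9 and 9.80. Il17f stood at 56.3 and 55.5 CPM against 62.5 and 38.4 CPM, a log2 ratio of 0.27 (SE 0.24, edgeR adjusted p = 0.96). Il2, a T cell growth factor made by some ILC3s, stood at 8.05 and 36.6 CPM against 13.3 and 10.98 CPM, above the zero side in replicate 2 and below it in replicate 1. Ifng, the type 1 cytokine, stood at 18.8 and 12.2 CPM against 30.5 and 36.1 CPM, and its log2 ratio of -1.17 (SE 0.38) did not pass (edgeR adjusted p = 0.15). Csf1, the macrophage growth factor, had 7 and 5 UMIs on the positive side and 25 and 6 on the zero side and was not called.

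**Figure D3:**
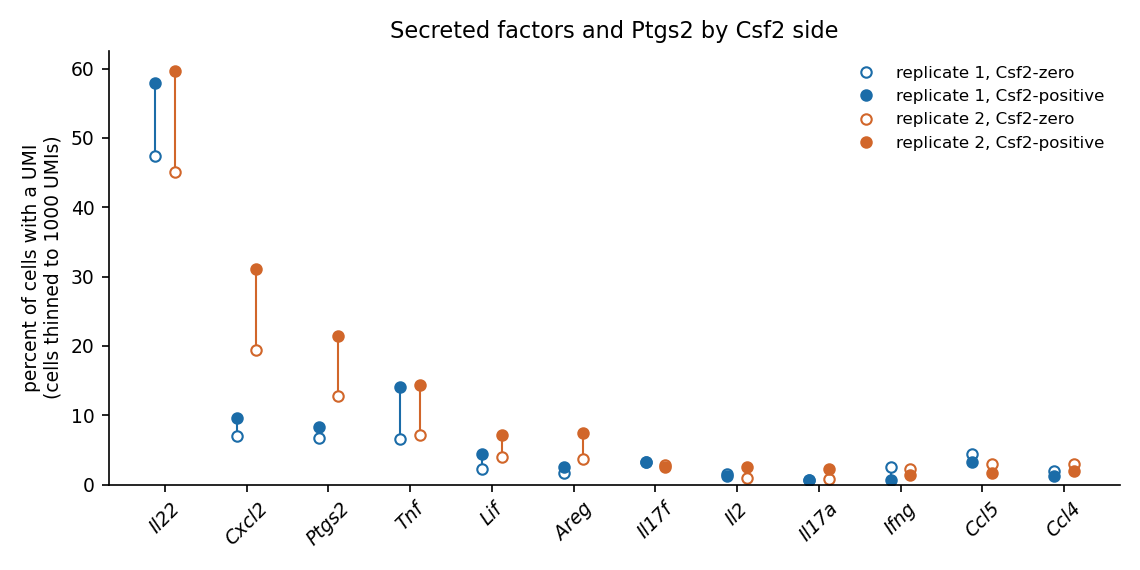
Percent of cells with at least 1 UMI of 12 genes after every cell was thinned to 1000 UMIs, with open points for Csf2-zero and filled points for Csf2-positive cells of each replicate. Il22 runs from 45.1% to 47.4% in Csf2-zero cells and from 58.0% to 59.6% in Csf2-positive cells, and Ccl5 and Ccl4 lie lower in the positive cells of both replicates.

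Chemokine genes were called in opposite directions, with 3 of 9 higher and 3 lower. Cxcl2, a neutrophil attractant, stood at 325 and 1563 CPM in Csf2-positive cells against 148 and 758 CPM in Csf2-zero cells. The replicates differed more than the sides did, and the positive side was the higher within each, at a log2 ratio of 1.12 (SE 0.09, edgeR adjusted p = 3.7e-30). Its neighbour Cxcl3, which binds the same receptor, stood at 83.2 and 245 CPM against 27.6 and 157 CPM, a log2 ratio of 0.88 (SE 0.16). Xcl1, which attracts cross-presenting dendritic cells, stood at 582 and 421 CPM against 396 and 377 CPM, a log2 ratio of 0.38 (SE 0.10, edgeR adjusted p = 0.012). The CC chemokines of cytotoxic and type 1 lymphocytes were lower: Ccl4 stood at 18.8 and 25.7 CPM against 47.0 and 107.8 CPM, and Ccl5 at 29.5 and 27.1 CPM against 99.1 and 67.8 CPM. Ccl3 had a log2 ratio of -1.45. These 3 genes were found in few cells. Ccl4 UMIs of the zero side came from 33 and 59 cells, and without the cells holding Ccl5 or Gzma the log2 ratio of Ccl4 was -0.74 (edgeR adjusted p = 0.71).

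Ptgs2, the inducible cyclooxygenase that makes prostaglandin E2 precursors, stood at 185 and 519 CPM against 118 and 272 CPM, a log2 ratio of 0.89 (SE 0.11, edgeR adjusted p = 7.1e-13). Tnfsf11, the RANK ligand by which ILC3s signal to stromal and dendritic cells, was the single TNF superfamily gene called of 7 tested, at 826 and 668 CPM against 692 and 465 CPM (log2 ratio 0.43, SE 0.09). Positive and zero sums of Tnfsf11 overlapped across replicates and were apart within each.

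Of the 23 tested genes of the NF-κB pathway, 5 were higher and none lower, with a median log2 ratio of 0.08. Those called were the subunit Rel, the inhibitors and IκB family members Nfkbia, Nfkbid and Nfkbiz, and the adhesion molecule Icam1. Nfkbia, which encodes IκBα and is itself induced by NF-κB, stood at 2645 and 2228 CPM against 2097 and 1588 CPM, a log2 ratio of 0.45 (SE 0.06, edgeR adjusted p = 1.4e-09). Rel stood at 582 and 725 CPM against 422 and 551 CPM, and Nfkbid at 735 and 615 CPM against 519 and 473 CPM, both with a log2 ratio of 0.47 (SE 0.09). Icam1 stood at 520.4 and 577 CPM against 391 and 427 CPM, at 0.47 (SE 0.10). The other subunits had log2 ratios of 0.17 for Nfkb1, -0.15 for Nfkb2, 0.08 for Rela and 0.07 for Relb, and the deubiquitinase gene Tnfaip3 stood at 0.17. None of these 5 was called.

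Promoter sequences of the higher genes were searched for the NF-κB consensus because NF-κB targets and NF-κB feedback genes were among them. The consensus was written as 3 G, any 2 bases, 3 T and 2 C and searched on both strands of the 250 bases before each RefSeq start (GRCm38.p6). Of the 42 higher genes, 36 had a window that was counted. Any window of these genes on a single chromosome was left out, while the set of all windows kept that chromosome. It occurred in 6 of the 47 windows of these genes (12.8%), against 464 of all 32851 windows (1.41%). Those genes were Cxcl2, Cxcl3, Nfkbia, Rel, Bcl2l1 and Vma21. The stretches of 4 of them are shown because the genes are chemokines or NF-κB pathway members, with matches in capitals (on either strand), each written 5′ to 3′ on the gene's strand.
Cxcl2 (chr5:90903772-90903845, plus strand): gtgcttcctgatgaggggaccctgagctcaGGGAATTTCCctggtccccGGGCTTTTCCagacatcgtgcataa
Cxcl3 (chr5:90785998-90786052, plus strand): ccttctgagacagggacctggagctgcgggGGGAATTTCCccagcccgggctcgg
Nfkbia (chr12:55492652-55492706, minus strand): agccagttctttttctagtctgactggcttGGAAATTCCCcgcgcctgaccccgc
Rel (chr11:23771036-23771090, minus strand): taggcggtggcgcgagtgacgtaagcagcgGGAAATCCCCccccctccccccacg
Csf2 is shown for comparison (chr11:54249900-54250019, minus strand), the 120 bases before its RefSeq start, which lies 232 bases upstream of the GENCODE start. Its window held no match to the consensus as written. The 232 bases next to the GENCODE start lay outside the window and were not searched, so the sites of Csf2 nearer that start are not known from this.
Csf2: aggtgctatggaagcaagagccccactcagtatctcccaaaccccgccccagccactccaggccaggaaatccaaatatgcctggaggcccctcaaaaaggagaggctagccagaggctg
The first match began 97 bases before the start in Cxcl2, which had 2 matches, 73 in Cxcl3, 29 in Nfkbia and 91 in Rel. Of the other motifs, the AP-1 letters TGANTCA were in 8.51% of the windows of the higher genes and 6.75% of all windows. The CRE letters TGACGTCA were in 4.26% and 1.55%, and the TATA box letters TATAAA in 21.3% and 12.4%. The NFAT core GGAAA, which the opposite strand of the NF-κB consensus contains, was in 70.2% and 55.6%. A match is a description of the sequence and not a measured binding site.

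Among 25 tested genes of NFAT, the Nr4a family and signalling brakes, 4 were higher and none lower, with a median of 0.11. Nr4a1, an orphan nuclear receptor induced by calcium and antigen receptor signals, stood at 1958 and 1687 CPM against 1516 and 1318 CPM, a log2 ratio of 0.40 (SE 0.07, edgeR adjusted p = 1.8e-06). Nr4a3 was higher by 0.22 (SE 0.06) on the log2 scale, at 2567 and 4915 CPM against 2259 and 4324 CPM. Cish, a cytokine signalling inhibitor induced by STAT5, stood at 349 and 584 CPM against 285 and 409 CPM, and Pim1, a kinase gene also induced by STAT5, at 5475 and 7131 CPM against 4843 and 5805 CPM. All 4 genes were above the zero side within each replicate. None of the 23 AP-1 and immediate early genes was called. Of them, 17 were above 0 (73.9%, against 51.9% of all genes tested), with a median of 0.13: Fos stood at 0.16, Jun at 0.20 and Junb at 0.03.

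The mRNA decay list had 2 of 19 genes higher and none lower, with a median log2 ratio of 0.06. Zfp36, whose protein tristetraprolin binds AU-rich elements of cytokine mRNAs, stood at 2473 and 832 CPM in Csf2-positive cells against 1820 and 650.2 CPM in Csf2-zero cells, a log2 ratio of 0.44 (SE 0.07, edgeR adjusted p = 4.5e-07). Its relative Zfp36l1 stood at 4386 and 5864 CPM against 3181 and 4641 CPM, at 0.44 (SE 0.06, edgeR adjusted p = 1.3e-12). The third family member, Zfp36l2, stood at 303 and 244 CPM against 327 and 304 CPM and was not called (log2 ratio -0.19, SE 0.11). Regnase-1 and Roquin, RNases and RNA binding proteins that also act on cytokine mRNAs, had log2 ratios of 0.18 (Zc3h12a) and 0.07 (Rc3h1) and were not called. Zfp36 differed more between the replicates than between the sides, and the positive side was the higher within each.

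Levels were also read in cells grouped by 0, 1, 2 and 3 or more Csf2 UMIs, as in the plot of levels by Csf2 UMIs. Tnf stood at 85.8, 159, 190.2 and 228 CPM in these groups of replicate 1 and at 87.4, 135, 212 and 166 CPM in replicate 2. Nfkbia stood at 2097, 2421, 2641 and 2649 CPM and at 1588, 1859, 2075 and 2296 CPM, and cells with a single Csf2 UMI lay between the zero and the positive side in both replicates. Lif stood at 23.3, 33.4, 32.6 and 100.7 CPM and at 52.9, 46.0, 132 and 80.2 CPM, so the level with 1 UMI was near that with 0. Cells with 1 UMI compared with cells with 0 gave 12 genes higher (0.142%) and 36 lower (0.425%), with log2 ratios of 0.78 for Tnf, 0.67 for Cxcl2 and 0.40 for Il22. Of the 42 higher genes, 41 were tested there and 8 were called. Lif, at 0.05, and Cxcl3, at 0.01, were not (edgeR adjusted p = 0.997 for both).

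**Figure D4:**
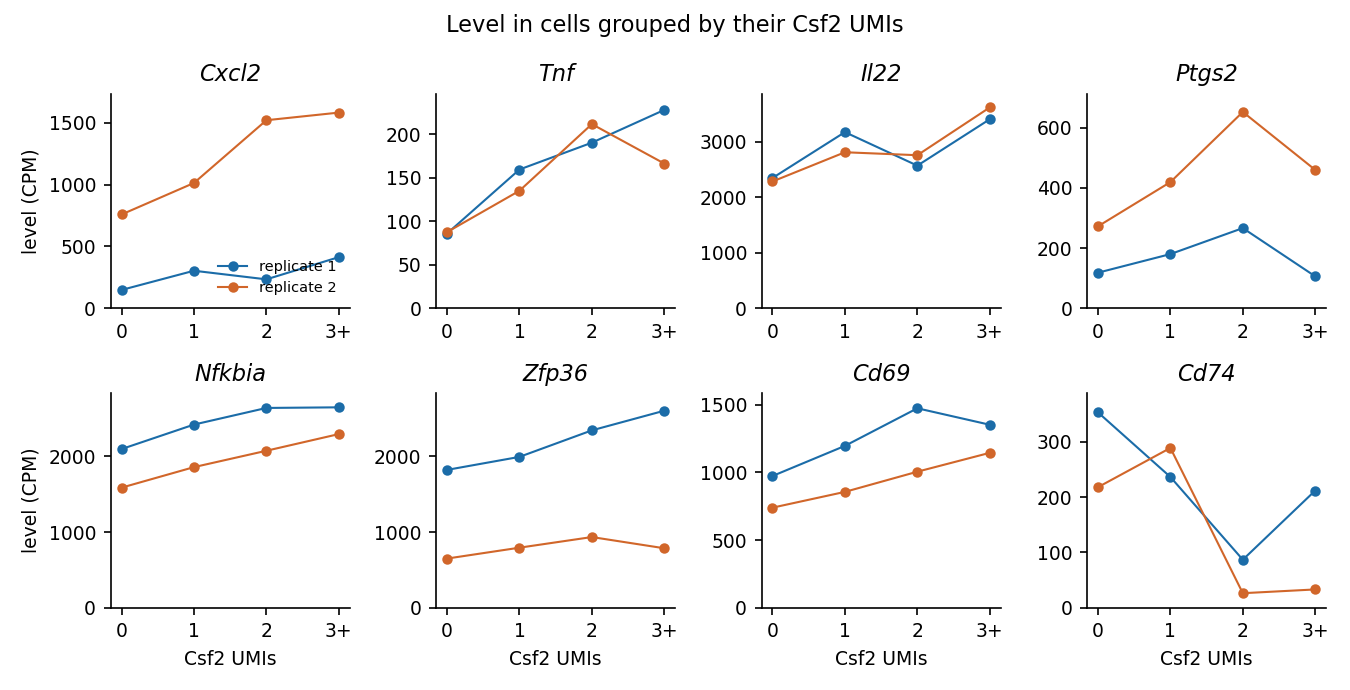
Level (CPM, linear axis from 0) of 8 genes in CD3-negative ILCs with 0, 1, 2 and 3 or more Csf2 UMIs, with 1 line per replicate and no error bars since each point is 1 sum. Nfkbia increases at each step in both replicates, from 2097 to 2649 CPM and from 1588 to 2296 CPM, while Cd74 is lower at 2 or more UMIs than at 0.

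Among the remaining activation genes, Cd69, an early activation and tissue retention marker, was higher at 1411 and 1101 CPM against 973 and 739 CPM (log2 ratio 0.60, SE 0.08, edgeR adjusted p = 5.6e-12). It was the single gene called of 11 tested in the checkpoint and costimulation list. Il2ra, the high-affinity IL-2 receptor chain, stood at 896 and 864 CPM against 662 and 720 CPM and was the only cytokine receptor of 26 that was higher (log2 ratio 0.38, SE 0.08). Bcl2l1, which encodes the survival protein Bcl-xL, stood at 67.1 and 85.3 CPM against 39.9 and 50.2 CPM (0.80, SE 0.23, edgeR adjusted p = 0.045), and Gadd45b at 848 and 796 CPM against 698 and 648 CPM. These were 2 of 15 survival genes. Hk2 and Gapdh, 2 glycolytic genes of 17 tested, had log2 ratios of 0.27 and 0.30, and none of 22 oxidative phosphorylation genes was called. The other genes with the largest ratios were Vma21, an assembly factor of the proton pump (0.75), Ackr3, a chemokine scavenging receptor (0.60), Nrgn, a calmodulin-binding protein (0.54), Stx11, a syntaxin of granule release (0.53), Chst11, a chondroitin sulfotransferase (0.53), and Arl5c (0.50). Mmp10, a matrix metalloproteinase, had the largest fitted ratio on 20 and 1 UMIs against 17 and 1, too few to describe further.

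Of the 19 ILC3 identity genes tested, Il22 alone was called. The list leaned to the positive side, with 18 genes above 0 (94.7%, against 51.9% of all genes tested), 9 with an unadjusted p below 0.05 and a median of 0.22. Its summed level was 12407 and 15441 CPM in positive cells against 11016 and 13321 CPM in zero cells, the higher on the positive side within each replicate. Il22 is part of this sum and carried a large part of that difference in both replicates. Il23r, the receptor of IL-23, stood at 193 and 186 CPM against 162 and 147 CPM (0.35, SE 0.14, edgeR adjusted p = 0.45), and Il1r1, the IL-1 receptor, at 327 and 242 CPM against 280 and 215 CPM (0.24, SE 0.11). The positive sums of these genes were the higher within each replicate by less than the test could call. Ncr1 stood at 198 and 137 CPM against 204 and 118 CPM, below the zero side in replicate 1 and above it in replicate 2. Of 28 lineage transcription factors, none was called. None of the 13 cell cycle genes was called either, though all 13 were above 0, with a median of 0.25.

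Cxxc1, the CpG-binding subunit of the SETD1 histone H3K4 methyltransferase and the gene of the series' title, was not called. It stood at 61.7 and 67.7 CPM against 83.6 and 65.5 CPM, with a log2 ratio of -0.11 (SE 0.22, edgeR adjusted p = 0.99). It had 23 and 50 UMIs on the positive side, and 5.10% and 7.42% of positive cells against 7.86% and 6.19% of zero cells had a UMI after thinning. None of the 19 genes of Cxxc1 and H3K4 methylation was called, where 0.494% of all genes tested were higher and 0.529% lower. Of the 19, 8 were above 0 (42.1%, against 51.9% of all genes tested), and their median was -0.02. Setd1a stood at 0.22, Setd1b at -0.02, Wdr82 at -0.45 and Kdm5b, a demethylase, at -0.15.

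**Figure D5:**
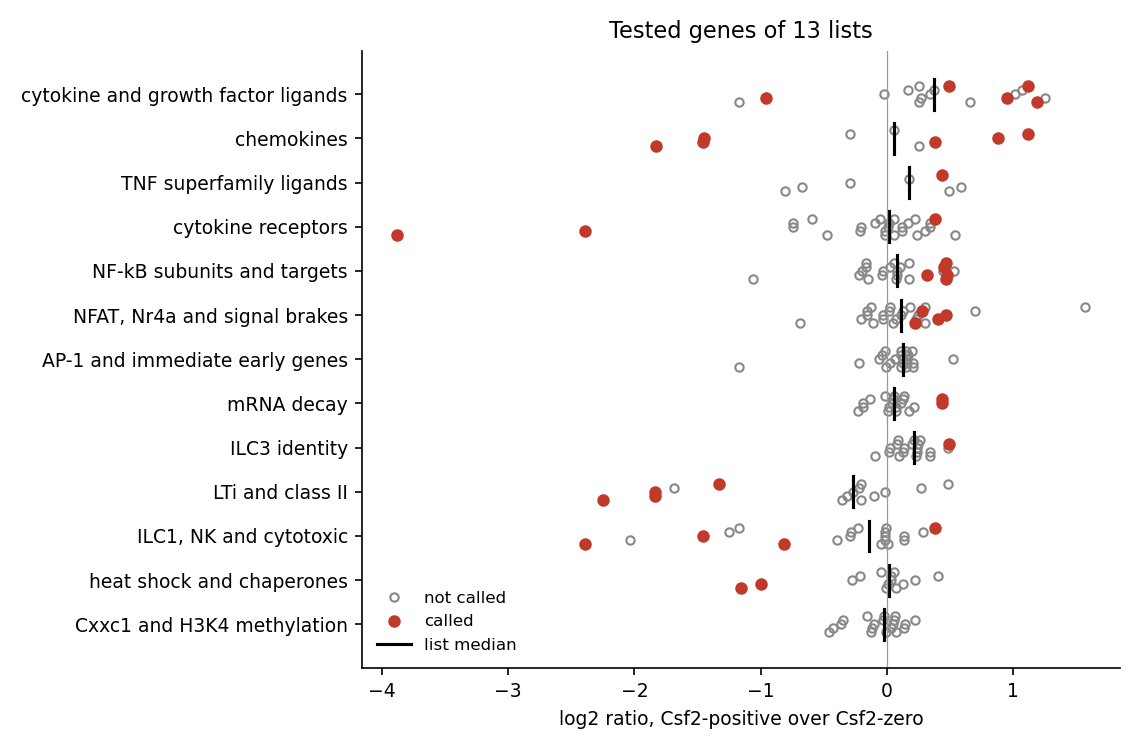
Log2 ratio of Csf2-positive over Csf2-zero cells for the tested genes of 13 lists, 1 point per gene, filled where called, with the list median as a black bar. Cytokine ligands have a median of 0.37, LTi and class II genes of -0.27, and Cxxc1 and H3K4 methylation genes of -0.02, beside 0.01 over all 8499 genes.

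The lower side contained 4 of 15 genes of the LTi and class II list, all of them antigen presentation genes that LTi-like ILC3s, B cells and myeloid cells carry. Cd74, the invariant chain, stood at 150.2 and 31.2 CPM in Csf2-positive cells against 353 and 218 CPM in Csf2-zero cells, a log2 ratio of -1.83 (SE 0.16, edgeR adjusted p = 2.4e-28). H2-Aa, an MHC class II α chain, stood at 51.0 and 44.7 CPM against 247 and 133 CPM, at -1.84 (SE 0.19, edgeR adjusted p = 2.02e-18). H2-Eb1 stood at 48.3 and 9.48 CPM against 161 and 85.1 CPM, and H2-Ab1 at 85.8 and 27.1 CPM against 191 and 85.5 CPM. Every positive sum of H2-Aa and H2-Eb1 was below both zero sums. The LTi genes of the list were not called, with log2 ratios of 0.48 for Ccr6, 0.27 for Cd4, -0.36 for Nrp1 and -0.20 for Cd83. The share of cells with an H2-Aa UMI after thinning was 3.18% and 1.37% on the positive side and 8.88% and 4.90% on the zero side. Without cells that held a UMI of any B, plasma, myeloid, stromal or epithelial list gene except Igkc, Cst3 and Pecam1, the log2 ratio was -2.28 for Cd74 and -1.65 for H2-Aa, and both were still called (edgeR adjusted p = 9.60e-07 and 0.000903). When cells with a UMI were counted in place of UMIs, none of the 4 genes was called. The log2 ratio was then -1.02 for Cd74, -1.64 for H2-Aa, -0.87 for H2-Eb1, against -2.25 in UMIs, and -0.82 for H2-Ab1 (edgeR adjusted p = 0.66, 0.27, 0.98 and 0.97). Cells with 1 Csf2 UMI gave -0.01 for Cd74 and -0.12 for H2-Aa against cells with 0, and neither was called.

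The ILC1, NK and cytotoxic list had 3 of 20 genes lower and 1 higher, with a median of -0.14. Il12rb2, the signalling chain of the IL-12 receptor, stood at 10.7 and 8.13 CPM against 34.5 and 57.6 CPM, a log2 ratio of -2.39 (SE 0.40, edgeR adjusted p = 1.04e-06). The positive side held only 4 and 6 of its UMIs. Nkg7, a cytotoxic granule protein, stood at 93.9 and 96.2 CPM against 198 and 157 CPM, at -0.81 (SE 0.16, edgeR adjusted p = 0.00013), and Ccl5 was the third. Tbx21, which encodes T-bet, had a log2 ratio of 0.29 and Gzma one of -1.25, neither called. Il21r, the IL-21 receptor, had 0 and 1 UMIs on the positive side and 37 and 39 on the zero side, and Ncf1, an NADPH oxidase subunit, had 2 and 2 against 48 and 49. Those counts are too few for a ratio to be informative. Without cells holding Ccl5 or Gzma, the log2 ratio was -1.90 for Il12rb2 and -0.59 for Nkg7, both still called.

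The 2 inducible heat shock genes Hspa1a and Hspa1b were lower, out of 14 heat shock and chaperone genes. Hspa1b stood at 5.37 and 274 CPM against 25.8 and 617 CPM, and Hspa1a at 16.1 and 217 CPM against 25.5 and 455 CPM. Their levels differed more between the replicates than between the sides. The genes are near-identical copies whose UMIs can be split between them, so the single values are uncertain. When cells with a UMI were counted in place of UMIs, the log2 ratio of Hspa1b was -0.08.

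Transcripts of other cell types moved with the lower side. Of the B and plasma cell list, 5 of 7 tested genes were lower, and of the stromal list 5 of 7. Summed over the 13 genes of the B and plasma list, the level was 2581 and 56.9 CPM in positive cells against 4784 and 1231 CPM in zero cells. The B cell marker Ms4a1 was at 0 in every sum. Summed over the 14 stromal genes it was 912 and 234 CPM against 3728 and 149 CPM. The myeloid list gave 397 and 249 CPM against 421 and 262 CPM and the epithelial list 2.68 and 17.6 CPM against 10.1 and 22.0 CPM. A few cells carried most of these transcripts: 1 cell held 99.5% of the 1110 Iglc3 UMIs of the zero side in replicate 1, and 1 cell held 97.3% of the 933 Igha UMIs in replicate 2. The stromal genes Col1a1, Col1a2, Col3a1, Dcn and Sparc were lower over both replicates together but higher on the positive side in replicate 2, where they were rare. On the side where a gene was the higher, a single cell held over 20% of a replicate's sum in 16 of the 45 lower genes (zero side) and in 5 of the 42 higher genes (positive side). Those 5 were Areg, Cxcl3 (32.3% in replicate 1), Lif (28.0% in replicate 1), Xcl1 and Mmp10, chosen for naming after their values were seen. The other-cell lists held 10 of the 45 lower genes and none of the higher. Without all cells that held any of these list genes, 9 genes were higher (0.13%) and 8 lower (0.115%), and the higher genes included Tnf (1.10), Cxcl2 (1.04), Ptgs2 (0.89), Cd69 (0.61) and Il22 (0.45). Lif, Areg and Cxcl3 were not called there, at 1.26, 0.72 and 0.62 (edgeR adjusted p = 0.069, 0.81 and 0.43).

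T cell genes outside the selection rule were not called in any of the 10 tested, with a median of -0.29. Trbc1 had a log2 ratio of 0.23, Trbc2 of -0.03, Cd247 of -1.60 and Trdc of -0.88. Their summed level was 1894 and 1624 CPM in positive cells against 1721 and 1746 CPM in zero cells. Leaving out every cell with Trbc1, Trbc2, Trdc, Cd8a or Cd8b1 kept only 30 of 157 and 94 of 372 positive cells. Of the zero cells it kept 485 of 1466 and 523 of 1534. The positive side, whose cells were also deeper, thus lost the larger part. In the cells kept, 1 gene was higher (0.0181%) and 4 were lower (0.0725%). The 1 higher gene was not among the 42. Of the genes of the full comparison that were tested there, 40 of 41 higher and 28 of 38 lower genes kept their direction. The part of residual T cells in the differences was not tested beyond this.

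Genes next to Csf2 on chromosome 11 were read within 500 kb of it. None of those tested was called, and Irf1, the interferon regulatory factor at that locus, stood at a log2 ratio of 0.01. Il3, the cytokine gene beside Csf2, was not analysed here.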

How the data were processed

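Transcripts were measured in 2 samples of 1 group, tag 6 of library 1 and tag 12 of library 2, which held 7011649 and 6845914 UMIs of the own tags. The files the authors deposited hold raw UMI counts, 1 row a cell and 1 column a gene, with errors in the molecular identifiers corrected. Their headers name BD's WTA Multiplex Rhapsody Analysis Pipeline 1.8 as the software. The submitters' processing notes also name HISAT2 2.0.5 and Bowtie2, with no role. Cells of other tags, multiplets and undetermined cells were not used, and no doublet caller was run, so doublets within a tag remain. Genes listed in a single table counted as 0 in the other.

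Counts were summed per replicate and side and tested with edgeR 4.0.16 (R 4.3.3), with TMM scaling, filterByExpr, the sample as a block and Benjamini-Hochberg adjustment at 0.05. The block pairs the sides by origin, since both are cells of 1 sample, and the deviations of the paired sums correlated at 0.51. Ratios over both replicates are edgeR's estimates. For a single replicate, log2 CPM with a prior count of 2 was subtracted between sides. CPM values carry no TMM scaling. Thinning drew 1000 UMIs per cell without replacement. On simulated data for this comparison, with 8625 genes tested, the fit called 76% of 50 genes set 2-fold higher, 100% of 50 set 4-fold higher, 44% of 50 set 0.5-fold and 82% of 50 set 0.25-fold, and 7 unchanged genes. The simulated counts had the fit's own common dispersion for every gene and no clumping of UMIs in single cells. They therefore do not show how many calls in the real data are false.

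The members and lists were chosen with earlier results of these data known. Genes are named if called, of 1 direction in both replicates and on at least 60 counts (the 15 highest and 10 lowest), or as up to 4 called genes of a list with the smallest p, beside a set that is always given and uncalled members of the cytokine, receptor, NF-κB, decay, ILC3 and Cxxc1 lists. B, plasma and stromal genes are given as markers of other cells. Vegfa, Ccl3, Nfkbiz, Dcn, Mmp10 and uncalled genes of the remaining lists were picked after their values were seen, as was the widening of the motif search from cytokine genes to all higher genes. A pair of genes that the rule names is not reported here, though counts over lists and alternatives include them. Gene positions come from GENCODE M21 and promoter sequences from RefSeq on GRCm38.p6, matched by symbol. Alternatives were DESeq2 1.42.0, other filters, no block, thinning, other Csf2 thresholds and leaving out cells with markers of other types. Counting cells in place of UMIs, edgeR's robust spread and leaving out cells with any other-cell list gene were added after seeing the data.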

Additional observations from a re-analysis of the deposited data

How the results depend on the processing

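The 42 higher and 45 lower genes depended on how the spread was set. DESeq2 called 13 higher and 3 lower, and counting cells in place of UMIs after thinning called 0 and 0. In the fit with no replicate block, where the pairing of the sides within a sample is ignored, 0 genes were higher and 0 lower, although all 42 and all 45 kept their direction. Thinning every cell to 1000 UMIs gave 18 higher, all among the 42, and 17 lower, 14 of them among the 45. Taking the sides from the thinned cells, with at least 1 UMI against 0, gave 15 and 15, of which 13 and 11 were among the main calls. Unless a setting is named, the adjusted p given for a gene is that of the main fit. Cells with 1 Csf2 UMI against 0 gave 12 higher. Without high-depth cells 28 genes were lower, without cells with UMIs of Cd79a, Lyz2, Col1a1, Col3a1 or Epcam 25 were lower, without cells with other T cell genes 1 was higher and 4 lower, and without cells with any other-cell list gene 9 were higher and 8 lower. In the last settings fewer cells entered. The other settings gave counts within 1.5 times of the main ones, and 40 to 42 of the higher genes kept their direction in each setting. Of the lower genes fewer did in some: 28 of 38 tested without cells with other T cell genes, 34 of 43 without high-depth cells, 30 of 37 without other-lineage genes and 35 of 40 with cells counted.

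Of the 44 called genes named by rule, 828 values under alternatives were computed, of which 524 kept their call, 302 kept the direction but not the call and 2 reversed: Vma21 was at -0.36 with 1 Csf2 UMI against 0, and Ccl5 at 0.20 without cells with other T cell genes. Among the 10 uncalled genes, Cxxc1 was at 0.12 with at least 3 Csf2 UMIs. Il17a was at -1.49 with 1 Csf2 UMI against 0, and Il17f at -0.55 there, at -0.041 with sides from thinned cells and at -0.12 with cells counted. The cause was not tested. The share of Csf2-positive cells was 8.64% to 16.6% with 1 replicate left out. Counts of called genes have no value with 1 replicate left out, because no residual degree of freedom remains. Small differences in rare transcripts were below what 157 and 372 positive cells can show.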
